A study of Mus musculus with 6 samples.

Results

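The genes described here are the substrate receptors that cullin-RING ubiquitin ligases reach through the adaptor DDB1 or through elongin B and C, with those adaptors themselves. They were chosen by name: every *Dcaf* gene with a number, every *Asb* gene, *Spsb* genes 1 to 4, *Wsb1* and *Wsb2*, and the 6 genes *Ddb1*, *Ddb2*, *Crbn*, *Det1*, *Elob* and *Eloc*. SOCS genes and *Cish* were left out. The rule found 45 genes among the 19505 named genes of the array, 19 on the DCAF and DDB1 side, 18 *Asb* genes, 6 *Spsb* and *Wsb* genes and the 2 elongins.

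RNA came from regulatory T (Treg) cells, sorted as CD4+YFP+ cells of spleen and peripheral lymph nodes from mice 8 to 12 weeks old, and was measured on Clariom S arrays. Each of the 6 arrays held the pooled cells of 2 to 3 mice, 3 arrays from control mice (*Foxp3* Cre/wt) and 3 from *Rbx1*&*Sag*-deficient mice, which had the same *Foxp3* Cre/wt genotype and were also *Rbx1* fl/fl and *Sag* fl/fl. *Sag* is the gene annotated *Rnf7* on the array. Both groups were female and carried the *Foxp3* YFP-Cre allele on a single X chromosome, so that X inactivation left a part of the Treg cells without Cre, and the sort took the YFP+ cells. The comparison asked which transcripts differed when Treg cells lacked both RING subunits of the cullin-RING ligases, and values below are the deposited log2 signals, with differences given as *Rbx1*&*Sag*-deficient minus control.

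As background, a cullin-RING ligase is built on a cullin scaffold that holds the RING subunit RBX1 or SAG at its C-terminal end and a substrate receptor at its N-terminal end. CUL4 binds DDB1, and DDB1 binds receptors known as DCAFs, many of which carry WD40 repeats. CUL2 and CUL5 bind elongin B and elongin C, which hold receptors by a VHL or SOCS box. The ASB proteins join a SOCS box to ankyrin repeats, the SPSB proteins to a SPRY domain, and the WSB proteins to WD40 repeats.

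*Rbx1* itself measured 9.26, 10.08 and 9.80 in the controls and 5.04, 5.53 and 5.84 in the deficient arrays, a difference of -4.24 ± 0.30 (SE, n = 3 and 3, limma adjusted p = 0.000237). *Rnf7* measured 11.47, 11.29 and 10.93 against 10.94, 11.39 and 9.65 (-0.57 ± 0.41, adjusted p = 0.379), and its difference was 0.02 once each array was centred on the brighter genes, those with a mean signal above that of the median gene. Its groups overlapped, and whether the *Rnf7* probe set lies in the deleted part was not tested, so it does not check the genotype. The sample titles carry the word Muscle, but 13 skeletal muscle markers averaged 3.47 to 3.61 in the controls and 3.68 to 3.78 in the deficient arrays, below every array median (4.0 to 4.32), with none called at an adjusted p under 0.05. Of the 13, *Ckm* alone lay above its array median on all 6 arrays (mean 4.91 against 4.94). *Actn2* (0.99, adjusted p = 0.0607) and *Mb* (0.55, 0.134) were higher without overlap, where 15.2% of all genes were. Of 12 measured Treg and CD4 T cell markers, which averaged 15.29 to 15.47 against 14.22 to 14.58, 7 fell. All 12 lay above every array median. Called lower were 9.49% of all genes and 18.3% of the genes brighter than the median gene, and 2.70% of all genes were called higher. *Foxp3* and *Trac* were not analysed here. Of the markers of other cells, 1 of 5 B cell genes, 2 of 8 CD8 T and NK cell genes, 3 of 9 myeloid genes and 0 of 3 erythroid and platelet genes were called, all lower, at mean levels of 3.97 to 4.13 against 3.62 to 3.78, 4.85 to 4.99 against 4.08 to 4.59, 4.44 to 5.0 against 4.05 to 4.10, and 3.91 to 4.14 against 4.14 to 4.62. These averages hide brighter genes. In each of these lists 1 gene lay above every array median: *Cd79b* (control mean 7.09 against 5.28), *Cd8b1* (8.74 against 8.72), *Cst3* (11.39 against 10.56) and *Itga2b* (5.82 against 6.42). *Nkg7* averaged 7.74 against 4.90. The part of other cells in the results below was not tested. In bulk RNA of this kind, fewer cells of a type and less RNA per cell cannot be told apart, and the replicates were pools of mice, whose spread is what the p-values rest on.

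In *Rbx1*&*Sag*-deficient Treg cells, 7 of the 45 genes fell and 2 rose at an adjusted p under 0.05 over all 19505 genes, and 36 were not called. The genes that fell were the ankyrin receptors *Asb13*, *Asb8*, *Asb2* and *Asb6* and, on the DDB1 side, *Dcaf12*, *Dcaf13* and *Det1*. Those that rose were the SPRY domain receptor *Spsb1* and *Dcaf12l1*. Over all genes, 9.49% were called lower and 2.70% higher, against 15.6% and 4.44% of these 45. The median difference of the 45 was -0.29, and that of all genes 0.04. The groups did not overlap in 18 genes that were lower and 8 that were higher, where the shares over all genes were 19.7% and 15.2%. Before adjustment, 21 of the 45 had a p under 0.05, against 30.2% of all genes. None of the 7 falls passed the threshold after quantile or cyclic loess normalization, which take out differences between arrays that vary with signal, although each kept its sign, and after centring on the brighter genes *Asb8* alone of the 7 passed. Without control replicate 3, none of the 9 calls remained (0 lower and 0 higher of the 45). *Spsb1* passed it under each of the 4 scalings tried.

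**Figure D1:**
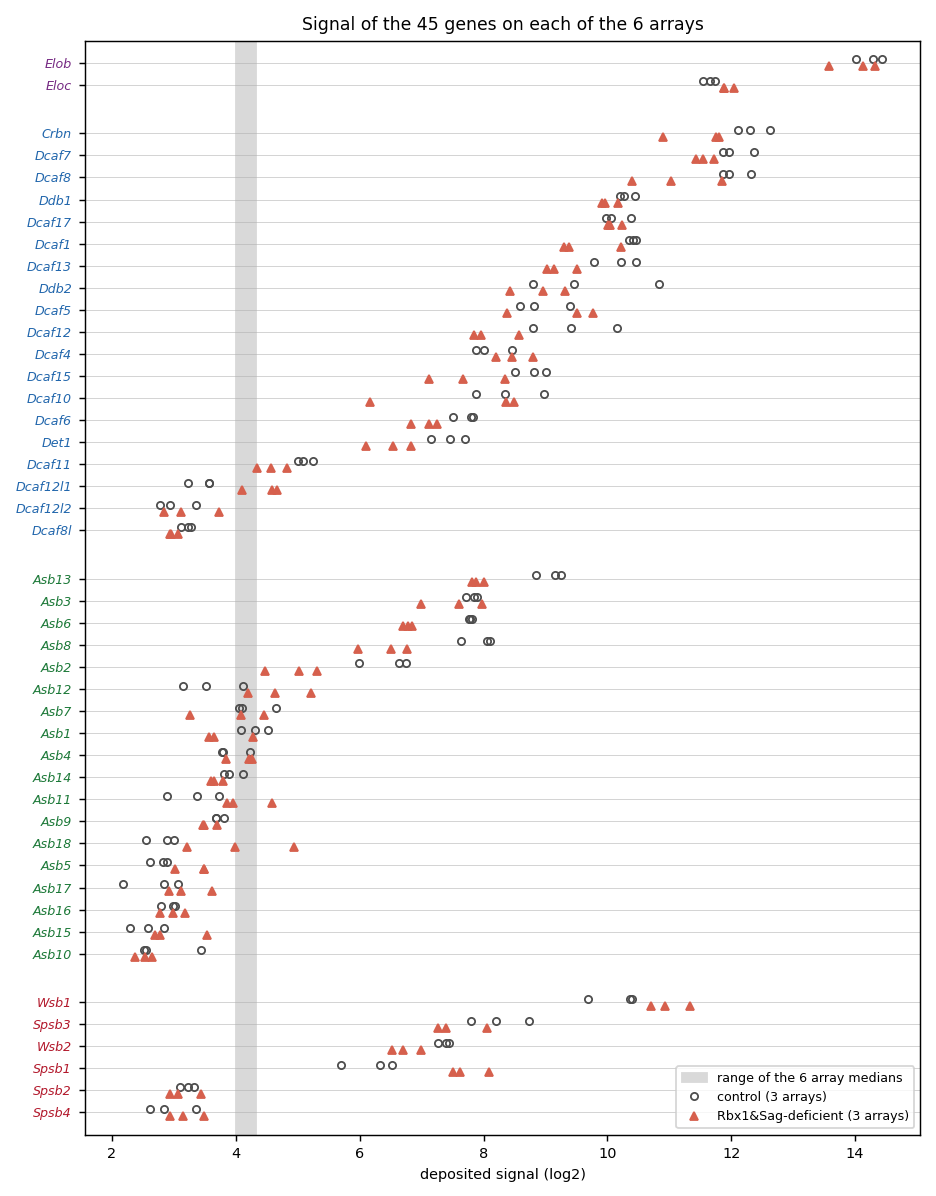
Deposited log2 signal of each of the 45 genes (horizontal axis) on the 3 control arrays (open circles) and the 3 *Rbx1*&*Sag*-deficient arrays (filled triangles), grouped into elongins, DCAF and DDB1 side, *Asb*, and *Spsb* and *Wsb* genes, with the range of the 6 array medians in grey. *Asb13*, *Asb8*, *Asb6* and *Asb2* stand lower in all 3 deficient arrays and *Spsb1* higher, while many *Asb* genes lie near or below the array medians.

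The promoters of the called genes are shown because the genes were measured as RNA and the falls and the rise can be set beside the DNA at their starts. RefSeq windows of 300 bases, 250 before and 50 after the annotated start on GRCm38.p6, matched 39 of the 45 genes and 8 of the 9 called ones. The 5 called genes with a single window are printed 5′ to 3′ on the gene's strand, with capitals for the ETS core CCGGAA on either strand. The windows are chr13:3633782-3634081 (+) for *Asb13*, chr2:30828251-30828550 (-) for *Asb6*, chr4:41314852-41315151 (-) for *Dcaf12*, chr7:78847162-78847461 (-) for *Det1* and chr4:149954957-149955256 (-) for *Spsb1*.
Asb13 promoter: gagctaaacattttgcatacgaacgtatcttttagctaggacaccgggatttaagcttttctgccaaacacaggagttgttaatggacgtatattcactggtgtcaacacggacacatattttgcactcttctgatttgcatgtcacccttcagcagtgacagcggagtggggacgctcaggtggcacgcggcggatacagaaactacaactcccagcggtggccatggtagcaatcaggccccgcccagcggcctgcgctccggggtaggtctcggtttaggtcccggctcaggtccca
Asb6 promoter: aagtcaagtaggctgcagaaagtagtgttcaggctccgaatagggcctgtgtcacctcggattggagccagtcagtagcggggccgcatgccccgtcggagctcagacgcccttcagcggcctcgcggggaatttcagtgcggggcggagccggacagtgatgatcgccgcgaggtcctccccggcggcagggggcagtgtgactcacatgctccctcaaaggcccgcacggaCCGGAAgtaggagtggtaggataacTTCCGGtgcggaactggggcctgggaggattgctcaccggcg
Dcaf12 promoter: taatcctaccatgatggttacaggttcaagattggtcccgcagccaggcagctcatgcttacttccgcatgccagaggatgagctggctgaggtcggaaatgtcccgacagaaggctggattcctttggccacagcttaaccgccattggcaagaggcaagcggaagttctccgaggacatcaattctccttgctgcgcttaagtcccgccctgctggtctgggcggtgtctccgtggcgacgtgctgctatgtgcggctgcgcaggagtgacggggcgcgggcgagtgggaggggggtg
Det1 promoter: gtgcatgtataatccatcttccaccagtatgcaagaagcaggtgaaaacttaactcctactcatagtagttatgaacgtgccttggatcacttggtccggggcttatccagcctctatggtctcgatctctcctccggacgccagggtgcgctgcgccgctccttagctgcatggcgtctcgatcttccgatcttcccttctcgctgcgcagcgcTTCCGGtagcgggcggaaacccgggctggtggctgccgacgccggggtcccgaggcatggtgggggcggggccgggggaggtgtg
Spsb1 promoter: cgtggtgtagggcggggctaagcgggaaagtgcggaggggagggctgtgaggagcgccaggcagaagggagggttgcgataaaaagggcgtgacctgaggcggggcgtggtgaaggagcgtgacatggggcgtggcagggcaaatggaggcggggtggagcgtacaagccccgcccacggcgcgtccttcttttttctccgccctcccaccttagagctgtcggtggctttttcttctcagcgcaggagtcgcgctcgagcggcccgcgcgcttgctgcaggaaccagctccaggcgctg

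The *Asb6* window held 2 ETS cores and that of *Det1* 1, and none was found in those of *Asb13*, *Dcaf12* and *Spsb1*. Over the genes with a window, the ETS core was present in 11 of 39, in 2 of the 6 that fell and in 0 of the 2 that rose, against 16.7% of all 27025 genes with a window. Genes were counted as holding a motif if any of their windows did, and of all 32851 windows 14.9% held the ETS core. GGGCGG, the GC box, was present in 25 of 39, in 5 of 6 and in 2 of 2, against 38.2% of all genes. The AP-1 site TGANTCA was found in 1 gene, *Asb6* (9.0% of all genes), the E-box CACGTG in 5, *Asb2* among them (8.1%), and the cAMP response element TGACGTCA in 1 gene that was not called (2.0%). All motifs were searched on both strands. The printed windows were rich in G and C, from 53.7% in *Asb13* to 66.3% in *Spsb1*, with 17 and 28 CpG dinucleotides respectively. These are matches of letters and no measurement of binding.

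As deposited, neither the elongins nor *Ddb1* were called. *Elob*, which encodes elongin B, measured 14.44, 14.29 and 14.01 in the controls and 14.12, 14.32 and 13.58 in the deficient arrays, a difference of -0.24 ± 0.26 (adjusted p = 0.564) whose sign turned after quantile normalization (0.16), cyclic loess (0.14) and centring on the brighter genes (0.35). *Eloc*, which encodes elongin C, measured 11.66, 11.74 and 11.54 against 11.88, 12.05 and 11.88 (0.29 ± 0.20, adjusted p = 0.366), and its difference was 0.73, 0.77 and 0.88 after quantile normalization, cyclic loess and centring on the brighter genes (adjusted p = 0.0672, 0.0516 and 0.0237), the last past the threshold. Every deficient array was above every control array for *Eloc*, and the *Elob* arrays overlapped. Within each array, *Eloc* minus *Elob* ran from -2.78 to -2.47 in the controls and from -2.27 to -1.70 in the deficient arrays, so the changes of the subunits differed by 0.53.

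*Ddb1*, the adaptor of CUL4, measured 10.20, 10.27 and 10.44 against 9.96, 10.17 and 9.91. Its deficient arrays all lay below the lowest control, by a small margin, and the difference of -0.29 ± 0.21 was not called (adjusted p = 0.378, 95% interval -0.76 to 0.18). It turned to 0.21, 0.24 and 0.30 after quantile normalization, cyclic loess and centring on the brighter genes. *Ddb2*, the receptor that recognises ultraviolet damage in DNA, had the most scattered controls of the 45, 9.46, 8.80 and 10.84, against 8.42, 9.31 and 8.96 in the deficient arrays (-0.80 ± 0.47, adjusted p = 0.286), and the groups overlapped. Its difference shrank to -0.25, -0.26 and -0.21 under those 3 scalings.

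Of the 18 *Asb* genes 4 fell, where 9.49% of all genes were called lower. The array medians lay below 5 of the 18 *Asb* genes on all 6 arrays, namely *Asb13*, *Asb3*, *Asb6*, *Asb8* and *Asb2*, and 4 of these 5 fell. By mean signal, 6 *Asb* genes were brighter than the median gene, these 5 and *Asb12*, and 4 of the 6 fell. *Asb12* went the other way, with a difference of 1.09 and no call. Of all genes brighter than the median gene by mean signal, 18.3% were called lower, and whether the *Asb* genes differ from the others was not tested. *Asb8* measured 8.11, 7.63 and 8.06 in the controls and 5.97, 6.77 and 6.50 in the deficient arrays. Every deficient array was below every control array, and the difference was -1.52 ± 0.27, a control signal 2.87-fold that of the deficient arrays (adjusted p = 0.0101). The call was lost without control replicate 3 (adjusted p = 0.0542), and after quantile normalization (-0.94, 0.0769) and cyclic loess (-1.0, 0.0537).

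*Asb2* encodes a receptor whose known substrates are the actin-binding filamins. It measured 6.74, 5.99 and 6.63 in the controls and 5.31, 4.47 and 5.02 in the deficient arrays. The groups did not overlap, and the difference was -1.52 ± 0.30 (adjusted p = 0.0141). The call was lost without control replicate 1 (adjusted p = 0.0635) or control replicate 3 (0.0683), after quantile normalization (-1.17, 0.0663), and narrowly after cyclic loess (-1.18, 0.0501).

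*Asb13* encodes another ankyrin repeat receptor of this family. Its signals were 9.16, 8.85 and 9.25 against 7.82, 8.00 and 7.87. Both groups were tight and did not overlap, and the difference was -1.19 ± 0.21 (adjusted p = 0.0105). It was -1.11 (adjusted p = 0.0586) without control replicate 3, -0.61 (0.151) after quantile normalization and -0.64 (0.123) after cyclic loess.

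*Asb6* encodes a receptor that binds the adaptor APS of insulin signalling. Its controls were 7.81, 7.78 and 7.77 and its deficient arrays 6.78, 6.70 and 6.84. Each group spread over a small part of the gap between them, and the difference was -1.01 ± 0.20 (adjusted p = 0.0139). Leaving out any single control array lost the call (adjusted p = 0.0571, 0.0675 and 0.0643 without control replicates 1, 2 and 3), as did quantile normalization (-0.40, 0.297) and cyclic loess (-0.49, 0.21).

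*Asb3*, whose protein is known in human cells to target the TNF receptor TNFR2, was not called. It measured 7.84, 7.89 and 7.72 in the controls and 7.60, 7.97 and 6.99 in the deficient arrays (-0.30 ± 0.27, adjusted p = 0.498), with overlap, and its sign turned after quantile normalization (0.29), cyclic loess (0.24) and centring on the brighter genes (0.30). Within each array, *Asb3* minus *Asb8* lay between -0.34 and 0.26 in the controls and between 0.49 and 1.63 in the deficient arrays. The changes of *Asb3* and *Asb8* therefore differed by 1.22 on the log2 scale, with no overlap between the groups.

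The 12 *Asb* genes with a mean signal at or below that of the median gene had a median difference of 0.11 and no call. Several of these are known from skeletal muscle or testis. *Asb12*, brighter than the median gene on average, measured 4.11, 3.15 and 3.52 in the controls and 4.63, 4.2 and 5.22 in the deficient arrays (1.09 ± 0.33, adjusted p = 0.0636), and *Asb18* measured 3.00, 2.88 and 2.54 against 3.98, 3.21 and 4.93 (1.23 ± 0.39, adjusted p = 0.0723). Neither pair of groups overlapped, but no control array and, for *Asb18*, a single deficient array was above its array median. Both passed the threshold with an intensity trend (adjusted p = 0.0497 and 0.0415), without *Rbx1*&*Sag*-deficient replicate 2 (0.0301 and 0.0132) and when centred on the brighter genes (0.0108 and 0.0124).

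On the DCAF and DDB1 side, 3 of 19 genes fell (15.8%) and 1 rose. Over all genes, 9.49% were lower and 2.70% higher. Of the genes brighter than the median gene, 18.3% were lower over the whole array and 3 of 16 (18.75%) on this side. *Dcaf12* encodes a receptor for proteins that end in a pair of glutamates. It measured 8.80, 10.15 and 9.41 in the controls and 7.85, 8.57 and 7.95 in the deficient arrays. The groups did not overlap, although the controls spread widely, and the difference was -1.33 ± 0.36 (adjusted p = 0.0422). The call was lost without control replicate 2 (-0.98, adjusted p = 0.152), control replicate 3 (0.123), *Rbx1*&*Sag*-deficient replicate 1 (0.111) or replicate 3 (0.0733), and after quantile normalization (-0.76, 0.198) and cyclic loess (-0.78, 0.164).

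*Dcaf13* encodes a WD40 protein that is also, as its yeast counterpart is, a part of the machinery that processes small-subunit ribosomal RNA. Its signals were 9.78, 10.46 and 10.22 against 9.02, 9.50 and 9.14, with every deficient array lower (-0.93 ± 0.25, adjusted p = 0.0443). *Det1*, a partner of the ubiquitin ligase COP1, measured 7.70, 7.45 and 7.15 against 6.83, 6.10 and 6.54 (-0.94 ± 0.26, adjusted p = 0.0477), again without overlap. Both calls were close to the threshold. With 1 array left out in turn, *Dcaf13* kept its call only without *Rbx1*&*Sag*-deficient replicate 2 (0.0292), the others reaching 0.18. *Det1* kept its call only without *Rbx1*&*Sag*-deficient replicate 1 (0.0482), the others reaching 0.157. Both passed after median centring (0.0308 and 0.0191). An intensity trend gave 0.0691 and 0.0773, and quantile normalization -0.40 (0.339) and -0.35 (0.526).

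*Dcaf12l1*, a relative of *Dcaf12*, measured 3.23, 3.56 and 3.56 in the controls and 4.09, 4.58 and 4.67 in the deficient arrays. The groups did not overlap, and the difference was 1.0 ± 0.24 (adjusted p = 0.0301), but none of the controls and 2 of the deficient arrays were above their array medians. The call was lost without control replicates 1, 2 or 3 (adjusted p = 0.109, 0.097 and 0.0902) or *Rbx1*&*Sag*-deficient replicate 3 (0.0547), and after median centring (0.0624), quantile normalization (0.096) and cyclic loess (0.0696).

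Most other receptors of this side with bright probe sets had a difference below 0 and no call. *Crbn*, the receptor bound by thalidomide-type drugs, measured 12.62, 12.30 and 12.10 against 11.80, 11.76 and 10.89, with no overlap and a difference of -0.86 ± 0.29 (adjusted p = 0.0894), or -0.40, -0.38 and -0.26 after quantile normalization, cyclic loess and centring on the brighter genes. *Dcaf15*, the receptor engaged by anticancer sulphonamides, measured 8.51, 8.82 and 9.01 against 8.35, 7.11 and 7.67 (-1.07 ± 0.32, adjusted p = 0.0612). For *Dcaf15* the lowest control and the highest deficient array stood close together without overlapping. It passed the threshold after median centring (-1.25, 0.0317), among the genes above the median signal (0.049) and without *Rbx1*&*Sag*-deficient replicate 1 (-1.39, 0.0273), and reached 0.495 after quantile normalization.

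*Dcaf8* measured 11.96, 12.32 and 11.86 against 11.02, 11.85 and 10.39 (-0.96 ± 0.35, adjusted p = 0.107). For *Dcaf8* the same 3 scalings gave -0.51, -0.47 and -0.37, and it passed the threshold without *Rbx1*&*Sag*-deficient replicate 2 (-1.34, 0.0165). *Dcaf7*, a scaffold for the kinase DYRK1A, measured 11.86, 12.37 and 11.97 against 11.43, 11.54 and 11.72 (-0.50 ± 0.23, adjusted p = 0.172), or -0.08, -0.02 and 0.09 under those scalings. In both, every deficient array was below every control array. *Dcaf17*, needed for sperm formation in mice, measured 10.38, 10.06 and 9.98 against 10.01, 10.24 and 10.04. Its groups overlapped at a difference of -0.04 ± 0.22 (adjusted p = 0.914, 95% interval -0.53 to 0.45), which turned to 0.47, 0.48 and 0.55 after quantile normalization, cyclic loess and centring on the brighter genes, and to 0.08 without control replicate 1. Of the 16 genes of this side brighter than the median gene, 14 had a difference below 0 and 11 were lower without overlap, with a median of -0.75. Among all 9753 genes brighter than the median gene, 6839 had a difference below 0, 35.7% were lower without overlap and the median was -0.40.

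**Figure D2:**
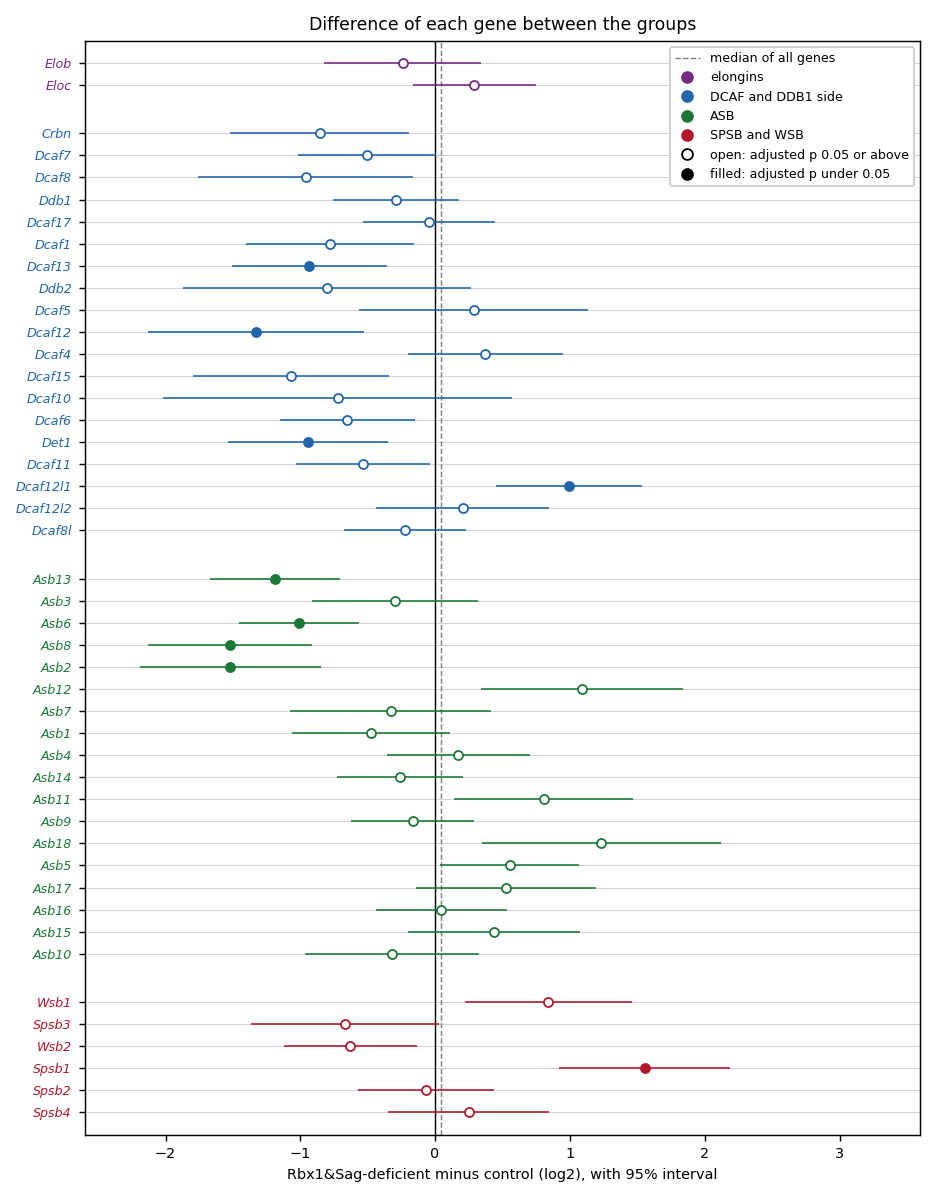
Difference in log2 signal (*Rbx1*&*Sag*-deficient minus control, horizontal axis) of each of the 45 genes as deposited, with its 95% interval, filled where the adjusted p over all genes was under 0.05. The 7 filled points on the left are *Asb13*, *Asb6*, *Asb8*, *Asb2*, *Dcaf12*, *Dcaf13* and *Det1*, all lost after quantile or cyclic loess normalization, and the 2 on the right are *Spsb1* and *Dcaf12l1*, the latter also lost.

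Of the 6 *Spsb* and *Wsb* genes, 1 rose and 0 fell, where 2.70% of all genes were called higher and 9.49% lower. *Spsb1* encodes a receptor for inducible nitric oxide synthase that also acts on the type II TGF-beta receptor in human cells. It measured 6.33, 6.52 and 5.69 in the controls and 7.62, 7.50 and 8.08 in the deficient arrays. Every deficient array was above every control, and the difference was 1.55 ± 0.28, a 2.93-fold higher signal (adjusted p = 0.0107, 95% interval 0.92 to 2.19). It was 1.37, 2.07, 2.06 and 2.15 after median centring, quantile normalization, cyclic loess and centring on the brighter genes (adjusted p = 0.0131, 0.0102, 0.0053 and 0.00187). Of the 6 arrays left out in turn, control replicate 3 alone took the call away (1.31, adjusted p = 0.0513). *Spsb3* measured 7.80, 8.73 and 8.20 against 7.39, 8.06 and 7.27 (-0.67 ± 0.31, adjusted p = 0.182, or -0.06, -0.12 and -0.08 after quantile normalization, cyclic loess and centring on the brighter genes), and the groups overlapped. *Spsb1* minus *Spsb3* within each array ran from -2.51 to -1.47 in the controls and from -0.56 to 0.81 in the deficient arrays, so their changes differed by 2.22.

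*Wsb1* encodes a receptor for the kinase HIPK2 and for the thyroid hormone deiodinase DIO2. It measured 10.39, 10.37 and 9.69 in the controls and 10.93, 11.33 and 10.71 in the deficient arrays, without overlap and without a call as deposited (0.84 ± 0.28, adjusted p = 0.0782). After quantile normalization, cyclic loess and centring on the brighter genes it passed the threshold (1.34, 1.36 and 1.43, adjusted p = 0.017, 0.0113 and 0.00672), and after median centring it did not (0.66, 0.17). Its paralogue *Wsb2* measured 7.26, 7.44 and 7.39 against 6.99, 6.52 and 6.69, with every deficient array lower (-0.63 ± 0.22, adjusted p = 0.0915). For *Wsb2*, median centring gave -0.81 (0.0395, past the threshold), and quantile normalization, cyclic loess and centring on the brighter genes gave -0.04, -0.12 and -0.04. *Wsb1* minus *Wsb2* lay between 2.30 and 3.13 in the controls and between 3.94 and 4.81 in the deficient arrays, a difference of 1.47 between their changes. *Spsb2* (-0.07, and 0.52 after centring on the brighter genes, 0.03 without *Rbx1*&*Sag*-deficient replicate 1) and *Spsb4* (0.25) were below the array medians and were not called.

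The within-array differences of 4 pairs were compared, *Wsb1* with *Wsb2*, *Spsb1* with *Spsb3*, *Asb3* with *Asb8* and *Eloc* with *Elob*, and the pairs were chosen after their values had been seen. Each gave an exact two-sided permutation p of 0.1, which is the smallest that 3 against 3 arrays allow, and 0.1 after Benjamini-Hochberg adjustment over the 4. The adjustment does not cover that choice, so these p-values cannot test whether the changes differ. Adding the same constant to every gene of an array leaves such a difference unchanged, whereas a scaling that depends on signal does not.

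**Figure D3:**
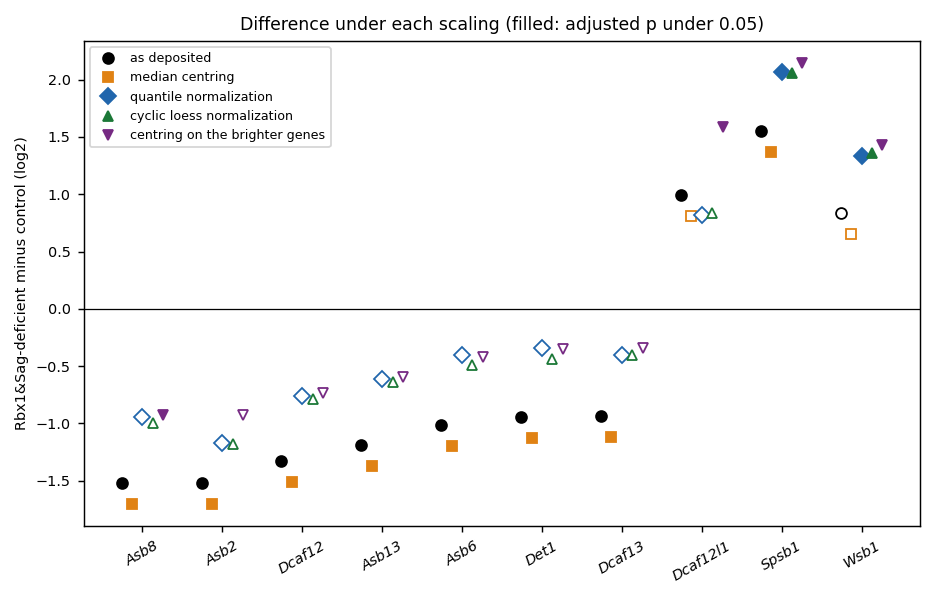
Difference in log2 signal (*Rbx1*&*Sag*-deficient minus control, vertical axis) of the 9 genes called as deposited and of *Wsb1*, as deposited and under 4 scalings, filled where the adjusted p was under 0.05. The 7 lower genes shrink toward 0 and lose their fill after quantile and cyclic loess normalization, whereas *Spsb1* stays filled throughout and *Wsb1* is filled under 3 of the 4 scalings.

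The falls lay among genes with bright probe sets, and genes of that kind were lower over the whole array. Of the 28 genes with a mean signal above that of the median gene, 7 fell, 1 rose and the median difference was -0.66. Among all 9753 such genes, 18.3% were called lower, 3.01% higher and the median was -0.40. Of the 17 dimmer genes, 0 fell and 1 rose with a median of 0.17, where 0.646% of the 9752 dimmer genes were called lower, 2.39% higher and the median was 0.22. Among those 17, 4 were higher without overlap, where 22.0% of the dimmer genes were. Lower without overlap were 16 of the 28 and 35.7% of all brighter genes. Upper quartiles of the arrays were 7.68 to 7.81 in the controls and 6.93 to 7.37 in the deficient arrays, while array medians were 4.0 to 4.11 and 4.13 to 4.32. Centring each array on its median moved the median of all genes by -0.18 and that of these 45 to -0.47, and centring on the brighter genes moved them by 0.59 and to 0.30. Relative to the median of all genes, the 45 stood at -0.33 as deposited, at -0.10 after quantile normalization and at -0.13 after cyclic loess. Either centring shifts every gene of an array by the same amount, so it could not change the -0.33.

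The 3 deficient arrays did not stand equally far from the controls. Over the 28 brighter genes, the median difference from the control mean was -0.57, -0.24 and -0.78 in *Rbx1*&*Sag*-deficient replicates 1, 2 and 3. Replicate 2 was the highest of the 3 in 16 of the 28 genes and replicate 3 the lowest in 11. Correlations across all genes ran from 0.992 to 0.993 between control arrays, from 0.976 to 0.983 between deficient arrays and from 0.956 to 0.979 between the groups.

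**Figure D4:**
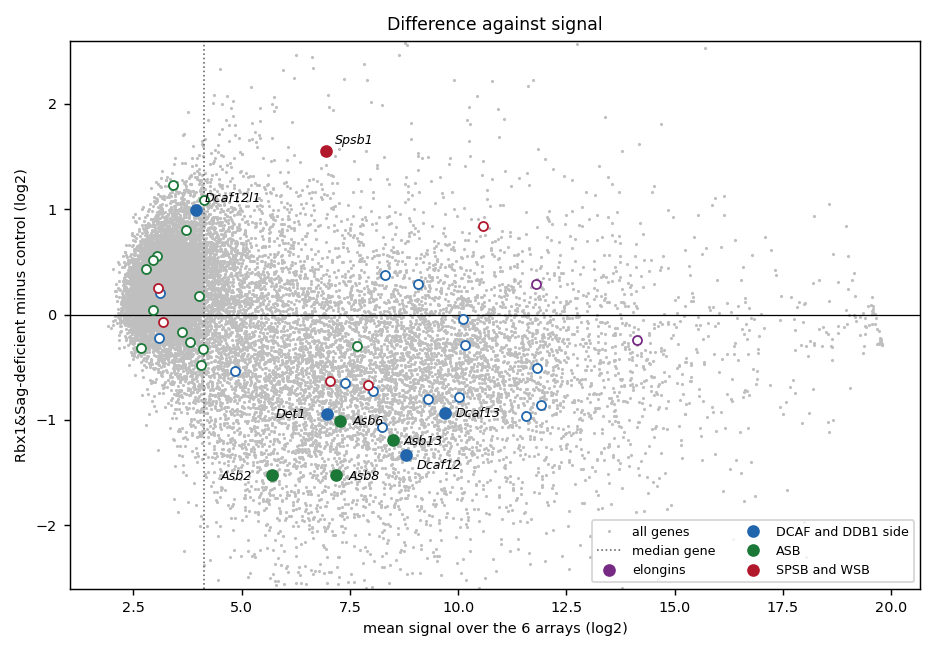
Difference in log2 signal (*Rbx1*&*Sag*-deficient minus control, vertical axis) against the mean log2 signal over the 6 arrays (horizontal axis) for all genes (grey) and the 45 genes (circles, filled where called), with 138 genes beyond the vertical range not drawn. The 7 lower calls sit to the right of the median gene (dotted line), in the range where the grey cloud also lies below 0, and the median of the brighter genes was -0.40.

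Lists of other parts of the same ligases were counted in the same way. Among 11 measured core genes of the CUL2, CUL4 and CUL5 ligases, *Rbx1* fell and none rose, with a median of -0.66. The shares over all genes were 9.49% lower and 2.70% higher. *Cul4a* (-0.79 ± 0.26, adjusted p = 0.0827) and *Cul5* (-0.82 ± 0.30, 0.108) were not called. Of 27 measured CUL4 receptors that carry other names, 5 fell (18.5%, near the 18.3% of all brighter genes) and 1 rose, with a median of -0.33, and 22 of the 27 lay above every array median. *Wdr61*, of the Ski and PAF1 complexes, measured 6.37, 6.69 and 5.67 against 3.49, 4.79 and 4.82 (-1.88 ± 0.40, adjusted p = 0.0196). Its call was lost after quantile normalization (0.0534) and without control replicates 1 or 2 (0.0762 and 0.0951). The others were *Wdtc1* (-1.77), *Brwd1* (-1.54), *Grwd1* (-1.07) and *Rbbp5* (-1.03), and *Wdr53* rose by 0.78. Of these 5, *Grwd1* and *Wdr53* alone passed after quantile normalization (adjusted p = 0.0325 and 0.0161) and cyclic loess (0.0343 and 0.0131). *Wdr53* did not pass after median centring (0.0974), nor *Grwd1* after centring on the brighter genes (0.192). Each of the 5 lost its call without control replicate 2 (0.107, 0.15, 0.125, 0.143 and 0.155 in the order given). With 1 array left out in turn, 3, 1, 3, 2 and 2 of the 6 fits kept the call, in the same order.

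Of 18 other receptors that reach elongin B and C by a VHL or SOCS box, 3 fell (16.7%) and none rose, with a median of -0.36. Called lower were 18.3% of all brighter genes and 9.49% of all genes, and 2.70% of all genes were called higher. The 18 were not limited to brighter genes, as 14 lay above every array median and 3 below every one. *Pcmtd2*, which encodes a methyltransferase-like protein, measured 8.34, 8.10 and 8.05 in the controls and 5.46, 6.93 and 5.82 in the deficient arrays. Every deficient array was below every control array, and the difference was -2.09 ± 0.36 (adjusted p = 0.00862). It passed the threshold under each of the 4 scalings (-1.50 to -2.28, adjusted p up to 0.0313) and with each array left out in turn (up to 0.0448). The methods' t-tests did not call it after adjustment (adjusted p up to 0.126), nor did they call *Rbx1* (up to 0.0992). *Klhdc2*, the receptor for proteins that end in glycine pairs, fell by 1.23 (adjusted p = 0.0403) and *Fem1a*, an ankyrin receptor, fell by 0.89 (0.0433). *Klhdc2* and *Fem1a* lost the call after quantile normalization (0.191 and 0.152), cyclic loess (0.131 and 0.13) and centring on the brighter genes (0.113 and 0.372), and with a replicate block. With 1 array left out in turn, each kept its call only without *Rbx1*&*Sag*-deficient replicate 2 (0.0101 and 0.0223), the others reaching 0.138 and 0.162.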

How the data were processed

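The authors reverse-transcribed, amplified and labelled the RNA, hybridised the cDNA to Clariom S arrays and summarised it in Expression Console 1.4, and the deposited values are log2 signals per probe set, 1 column per array, with 0 columns unused. No source used here gives the summary algorithm or the probe annotation. Of 22206 probe sets, 19572 had 1 gene symbol in the platform annotation, 0 had several and 2634 none, and the brightest probe set per symbol was kept (67 left out), leaving 19505 genes. Each of the 45 genes had 1 probe set and matched a RefSeq gene. Signals of different probe sets cannot be compared as RNA levels.

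Groups came from the titles and genotype labels. The groups were compared with limma 3.58.1 (lmFit and eBayes, R 4.3.3) on the deposited log2 values, without a block or further scaling, with two-sided p-values adjusted by Benjamini-Hochberg over all genes and called under 0.05. The script was tested on simulated data in which 200 of 19505 genes were changed. It called 9% of the log2 changes of 1 and 71% of those of 2. In the deposited data 2378 genes were called, so these shares do not carry over directly. A gene that was not called is not shown to be unchanged. The number of arrays, 3 per group, limits the precision. The genes and lists were chosen with earlier results of these data known, so no list was tested. Named genes were the targeted genes, the adaptors, *Crbn*, *Det1* and *Ddb2*, every called gene, genes that differed by over 1 without overlap, the 5 brightest of each family, and called genes of 3 pathway lists. Other genes were given by count, and *Spsb4*, *Cul4a* and *Cul5* were named after their values were seen. Alternatives were other scalings and moderation, plain t-tests as in the methods, probe set rules, a replicate block and leaving out each array. The labels and the methods name different CD4 enrichment kits.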

Additional observations from a re-analysis of the deposited data

How the results depend on the processing

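As deposited, 1851 genes were lower, 527 higher, and of the 45 genes 7 were lower and 2 higher, with a median of -0.29. Quantile normalization gave 733 lower over all genes, 0 of the 45 lower and a median of -0.0819, and cyclic loess 876, 0 and -0.13. Median centring gave 2502 lower and 279 higher over all genes, 10 of the 45 lower and 1 higher, and a median of -0.47. Centring on the brighter genes gave 910 lower and 6966 higher, of the 45 1 lower (*Asb8*) and 15 higher, and a median of 0.30. Which scaling is nearest to RNA per cell was not tested. Testing only genes above the median signal, which leaves 28 of the 45, gave 324 higher, 1 of the 28 higher and a median of -0.66. An intensity trend gave 4 of the 45 higher.

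The methods' t-test on log2 values gave 1808 genes higher unadjusted and, of the 45, 12 lower and 5 higher. After Benjamini-Hochberg adjustment it gave 23 lower and 7 higher, and 1 (*Asb6*) and 0 of the 45. On linear values it gave 2868 lower and 1464 higher, 13 and 5 of the 45, and after adjustment 20 and 6, and 1 (*Asb6*) and 0.

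With 1 array left out in turn, genes lower ran from 544 to 2611 and higher from 76 to 1012, and of the 45 from 0 to 8 lower and 0 to 4 higher. Without control replicate 3, 0 of the 45 were lower and 0 higher. Whether the replicate numbers pair the samples was not settled. Deviations from the group means correlated at r = 0.009, 0.109 and 0.021 between same-numbered arrays, and from -0.133 to 0.111 between differently numbered ones. With 3 arrays per group, such correlations cannot decide it. A replicate block gave 2010 lower, 534 higher and, of the 45, 7 lower and 3 higher.

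Among the named genes, signs turned, none with a call as deposited, in *Asb3* (0.29 after quantile normalization, 0.24 after cyclic loess, 0.30 after centring on the brighter genes), *Dcaf17* (0.47, 0.48, 0.55, and from -0.123 to 0.0767 with 1 array left out, the last without control replicate 1), *Ddb1* (0.21, 0.24, 0.30) and *Elob* (0.16, 0.14, 0.35), and after the last alone in *Dcaf7* (0.09), *Rnf7* (0.0233) and *Spsb2* (0.52, and from -0.217 to 0.0333 with 1 array left out, the last without *Rbx1*&*Sag*-deficient replicate 1). Another 11 of the 45, not named with values, turned sign under 1 or more alternatives. Over the named genes and all alternatives, 566 values kept their sign and side of the threshold, 144 lost a call, 26 gained one and 17 turned. These counts include the t-tests without adjustment, where an unadjusted p under 0.05 was counted as a call. Dim probe sets near the array medians, such as that of *Dcaf12l1*, limit what can be read of low signals.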
